A study of Mus musculus with 19 samples.

Results

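Genes whose products carry new proteins into the endoplasmic reticulum (ER), fold them there, or sense and relieve an overload of unfolded protein were followed through pregnancy in the mouse mammary gland. The 40 member genes were taken by symbol from a named list, and all 40 were found among the 24421 genes of the count files. They fall into 7 roles, namely the signal recognition particle and its receptor (6 genes), the Sec61 channel (5), the translocon-associated TRAP complex (4), the signal peptidase (4), chaperones and folding enzymes (13), other stress-induced ER proteins (3), and stress sensors with their transcription factors (5). Total RNA-seq libraries came from mammary tissue of mice labelled C57BL/6, which the study's methods give as C57BL/6N. Wild type (WT) glands were sampled at pregnancy day 6 (p6, n = 3) and day 18 (p18, n = 3). Glands labelled Enhancer-delS1-4, called ΔSE here, came from mice homozygous for a CRISPR/Cas9 deletion of the casein super-enhancer and were sampled at p6 (n = 4) and p18 (n = 4). Mice labelled delCsn3-PE (n = 2) and delCsn1s2b-E (n = 3), which are homozygous for loss of an enhancer of Csn3 and of Csn1s2b respectively, are labelled p18. The notes on RNA extraction for these last 5 libraries name lactation rather than pregnancy, so their stage is uncertain. These libraries also had no WT of their own and differed from the other 14 in ribosomal RNA content. The genotypes are germline deletions, and the tissue is whole gland with its fat pad.

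The WT and ΔSE libraries held 12335272 to 20525175 reads in genes, of which 21.7% to 42.9% were the ribosomal precursor Rn45s. The single-enhancer libraries held 26848053 to 30329601 reads, with 0.0765% to 0.924% in Rn45s. Levels are given as CPM, counts per 1000000 reads in genes after TMM scaling for composition. At p18, the casein gene Csn3 stood at 5065 to 6466 CPM in WT and 49.3 to 143 CPM in ΔSE, and at 270 to 1312 CPM in delCsn3-PE. Csn1s2b was at 27.1 to 48.9 CPM in delCsn1s2b-E, overlapping the 42.9 to 222 CPM of WT p18 on the same scale (log2 difference −1.56 ± 0.52, edgeR adjusted p = 0.0394). Epithelial keratins and claudins were detected in every library, as were adipocyte genes. Skeletal muscle genes summed to 6.41 CPM in 1 WT p18 library and to 1017 and 1559 CPM in the other two, against 8.75 to 18.6 CPM in the ΔSE p18 libraries. Plasma cell genes summed to 403 CPM in WT p6 replicate 3 and to no more than 96.2 CPM elsewhere. WT p6 replicate 2 stood apart within its group in milk genes, at 42.1 CPM of Csn1s1 where the highest WT p6 library held 1624 CPM. The ΔSE p6 libraries held 16.0 to 93.3 CPM of Csn1s1, a range that includes this value. Which of the WT p6 libraries match their labelled stage was not tested. The values of Xbp1 and Bhlha15 and the comparisons at p6 are given with and without replicate 2.

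A secretory protein is recognised by the signal recognition particle while it is still being made, is docked at its receptor, and is threaded through the Sec61 channel, where signal peptidase cuts off its signal. Inside the ER, chaperones such as BiP and disulfide isomerases fold it. When unfolded protein builds up, the membrane sensors IRE1 (Ern1), PERK (Eif2ak3) and ATF6 raise the folding capacity, IRE1 by splicing the mRNA of the transcription factor Xbp1. Alveolar cells of the mammary gland become secretory during pregnancy and export milk protein in bulk.

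Many ER chaperone genes carry the ER stress response element (ERSE), CCAAT then 9 bases then CCACG, in their promoters. Promoters in the RefSeq table (GRCm38.p6, from 250 bases before to 50 after the annotated start) were found for 32 of the 40 members. Searched on both strands, ERSE was present in 7 of the 32 (21.9%), against 39 of all 32851 promoters (0.119%). A shorter form, ERSE-II (ATTGG, 1 base, CCACG), was present in 2 members (6.25%) and in 0.0365% of all promoters. The XBP1-type element TGACGTGG, searched the same way, was present in no member promoter and in 0.676% of all promoters. All of the elements lay in promoters of chaperones, folding enzymes, Creld2 and Herpud1, and no translocation gene with an entry carried one. A match in these letters is a description of the sequence and not a measured binding site. The stretches that hold them are shown because, among members with an entry, the elements lay only in folding and stress-induced genes. Not every folding gene carried one. Pdia3, Pdia4, P4hb, Dnajb9 and Sdf2l1 had an entry without any of the elements. Capitals mark the element, in the gene's own direction, so that it reads in reverse complement where it begins with CGTGG.
Hspa5 (chr2:34772005-34772063, + strand): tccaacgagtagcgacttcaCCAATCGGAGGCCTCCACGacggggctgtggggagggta
Calr (chr8:84847055-84847113, − strand): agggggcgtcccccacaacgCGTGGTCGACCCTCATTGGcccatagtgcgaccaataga
Canx (chr11:50325780-50325838, − strand): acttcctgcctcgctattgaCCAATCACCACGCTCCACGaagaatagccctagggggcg
Pdia6 (chr12:17266471-17266529, + strand): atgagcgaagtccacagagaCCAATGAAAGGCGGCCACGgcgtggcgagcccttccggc
Dnajc3 (chr14:118937807-118937865, + strand): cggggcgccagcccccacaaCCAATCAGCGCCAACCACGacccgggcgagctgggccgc
Creld2 (chr15:88819500-88819558, + strand): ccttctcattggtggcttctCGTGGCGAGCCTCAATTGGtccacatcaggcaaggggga
Dnajb11, ERSE-II (chr16:22857832-22857882, + strand): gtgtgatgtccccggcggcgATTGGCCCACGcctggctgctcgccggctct
Herpud1, ERSE-II (chr8:94386357-94386407, + strand): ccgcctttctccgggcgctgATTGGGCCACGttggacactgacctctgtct
The promoter of Hsp90b1 held ERSE at positions −212 and −107 from the start, in opposite directions (chr10:86705513-86705676, − strand).
Hsp90b1: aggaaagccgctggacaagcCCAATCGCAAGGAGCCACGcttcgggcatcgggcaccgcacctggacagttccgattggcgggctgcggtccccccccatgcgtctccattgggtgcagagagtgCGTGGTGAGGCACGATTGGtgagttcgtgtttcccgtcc

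**Figure D1:**
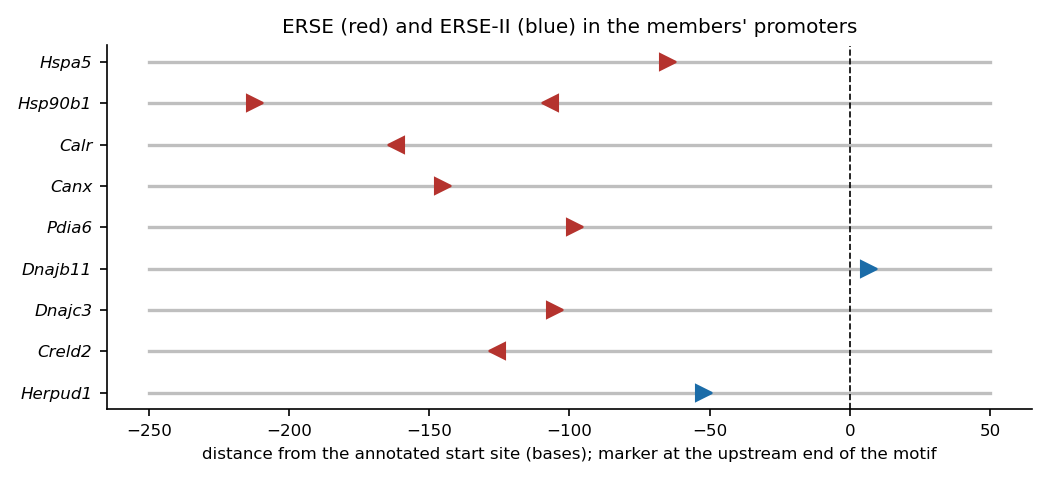
Position of ERSE (red) and ERSE-II (blue) in the promoters of 9 members, as distance in bases from the annotated start site (dashed line), with the arrow giving the element's direction and the grey bar the searched window. The upstream ends lie between positions −212 (Hsp90b1) and 7 (Dnajb11).

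Through pregnancy in WT glands nearly the whole ER programme rose. At p18, 38 of the 40 members were higher than at p6 and 1 was lower, and the median member stood 1.06 higher on the log2 scale while the median of all genes tested was −0.05. All genes together gave 17.2% called higher and 12.4% called lower (edgeR's quasi-likelihood test, Benjamini-Hochberg adjusted p under 0.05, 17844 genes). All 40 members passed the filter of 10 reads in total. The rise was largest in the machinery of the ER membrane. By role, the median log2 change was 1.64 for TRAP, 1.55 for signal peptidase, 1.48 for the Sec61 channel and 1.11 for the signal recognition particle, and 0.89 for chaperones and folding enzymes. In whole tissue, more secretory cells and more RNA per cell cannot be told apart.

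**Figure D2:**
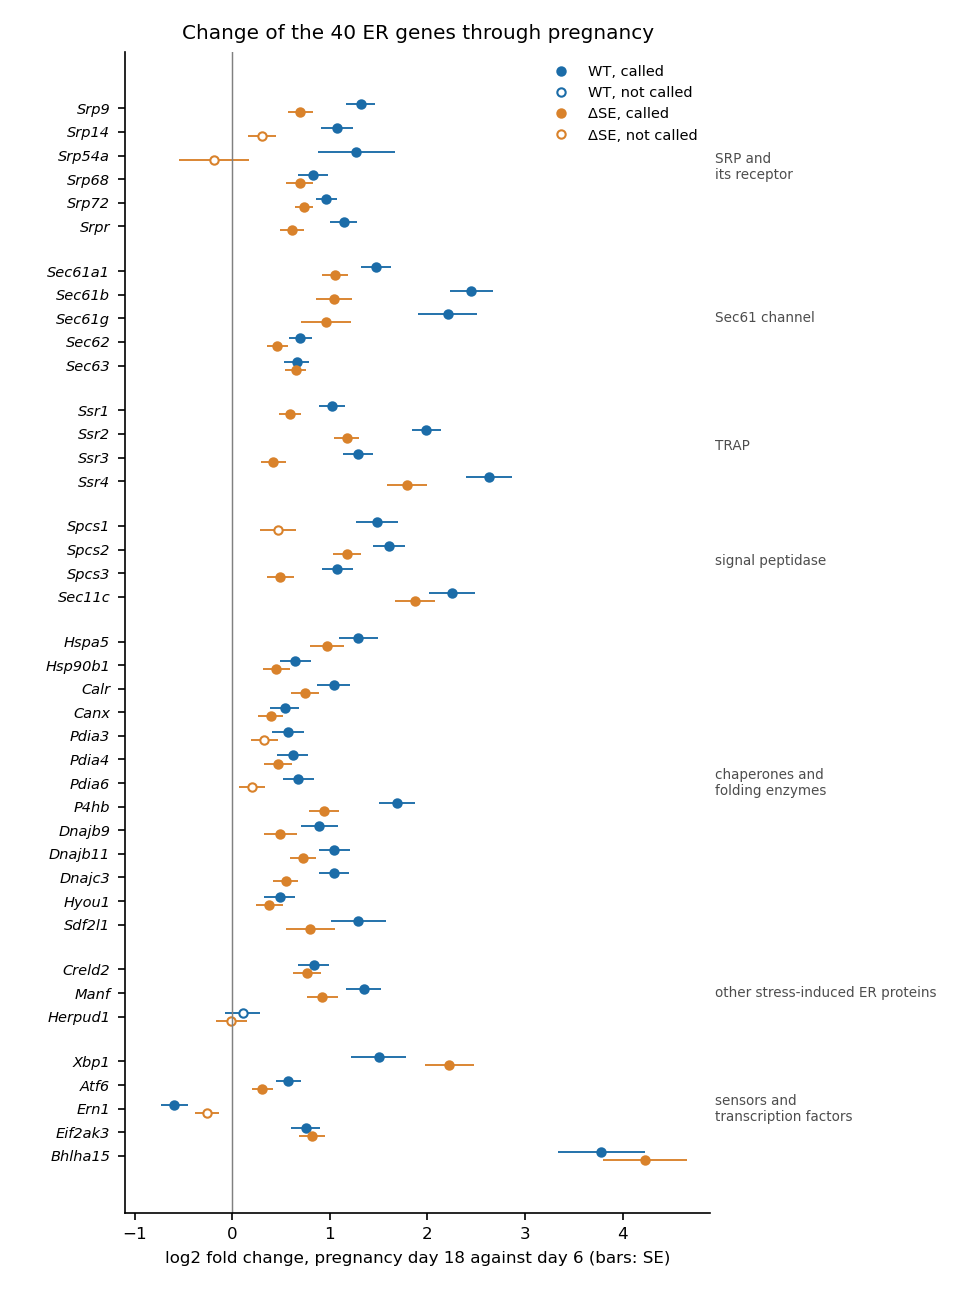
Log2 fold change from p6 to p18 (horizontal axis) of each of the 40 members, grouped by role, in WT (blue) and ΔSE (orange), with bars giving the standard error and open circles marking members that were not called. In WT, 38 members lie to the right of 0 and are called, and Ern1 alone is called to the left.

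Among the translocation genes, Sec61b (chr4:47474658-47483242 in GRCm38, GENCODE M21), a small subunit of the channel, stood at 7.11, 11.1 and 14.2 CPM in the WT p6 libraries and at 70.2, 53.5 and 54.9 CPM at p18. The groups lay far apart, and the log2 change was 2.45 ± 0.22 (SE; edgeR adjusted p = 2.02e-06). Its partner Sec61g rose by 2.21 on the log2 scale, and Sec61a1, which forms the pore, rose from 83.4, 95.1 and 96.1 CPM to 260, 279 and 225 CPM. The accessory subunits Sec62 and Sec63 rose less, by 0.70 and 0.66. In the TRAP complex, which sits beside the channel and aids the entry of some proteins, Ssr4 went from 18.9, 16.9 and 29.7 CPM to 166, 119 and 123 CPM (log2 change 2.63 ± 0.24, edgeR adjusted p = 2.02e-06). Ssr2 went from 32.8, 43.7 and 42.1 CPM to 166, 162 and 144 CPM (1.99 ± 0.15, edgeR adjusted p = 4.91e-07). All 4 TRAP genes were called, the smallest change being that of Ssr1, at 1.02.

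The signal peptidase genes showed the same order of change. Sec11c, a catalytic subunit, was at 22.2, 12.9 and 25.1 CPM in WT p6 and at 115, 86.7 and 85.6 CPM at p18 (log2 change 2.25 ± 0.24, edgeR adjusted p = 8.07e-06). Spcs2, a noncatalytic subunit, was at 29.5, 36.0 and 41.4 CPM and then at 116, 112 and 98.5 CPM (1.61 ± 0.17, edgeR adjusted p = 6.88e-06). In neither gene did the groups overlap. All 6 genes of the signal recognition particle and its receptor were called higher, in a narrower band from 0.83 (Srp68) to 1.32 (Srp9). Srp9, which with Srp14 forms the part of the particle that slows translation, was at 18.5, 17.1 and 18.1 CPM in p6 and at 49.3, 44.4 and 40.1 CPM in p18. Srp72, a core protein of the particle, was at 61.0, 58.2 and 56.0 CPM and then at 113, 125 and 104 CPM. The Srp54a value is uncertain, because it was below 4 CPM throughout and its near-identical copies Srp54b and Srp54c held 1 and 0 reads over all 19 libraries.

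All 13 chaperones and folding enzymes were called higher, by 0.49 (Hyou1) to 1.69 (P4hb). Hspa5 (chr2:34771970-34777547), which encodes BiP, the major chaperone of the ER lumen, stood at 190, 258 and 297 CPM in WT p6 and at 617, 700 and 512 CPM in p18 (log2 change 1.29 ± 0.20, edgeR adjusted p = 0.000195). P4hb, a protein disulfide isomerase, rose from 171, 256 and 259 CPM to 753, 771 and 689 CPM (1.69 ± 0.18, edgeR adjusted p = 8.55e-06). Every p18 library exceeded every p6 library for both. Dnajc3, a BiP co-chaperone, rose by 1.04 from 82.8, 84.3 and 95.4 CPM to 195, 199 and 147 CPM. The HSP90 of the ER, Hsp90b1, and the lectin chaperone Canx rose by 0.64 and 0.54, while the lectin chaperone Calr rose by 1.04. The 7 members with ERSE in their promoter were all called, with a median log2 change of 0.83, and of the 23 members with a promoter entry and none of the elements 22 were called higher, with a median of 1.27.

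Of the other stress-induced proteins, Manf, a secreted survival factor of stressed cells, rose by 1.35, from 19.0, 22.8 and 28.7 CPM to 64.7, 66.0 and 49.5 CPM. Creld2, induced by ATF6, rose by 0.83, from 12.1, 11.3 and 14.6 CPM to 24.7, 25.3 and 17.9 CPM. Herpud1, a component of ER-associated degradation that is strongly induced by stress, was at 23.6, 22.7 and 36.5 CPM in p6 and at 30.1, 33.0 and 26.3 CPM in p18. Its groups overlapped, and its log2 difference of 0.11 ± 0.18 was not called (edgeR adjusted p = 0.693). It was the only member without a call in WT.

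The sensors parted from one another. Ern1 (chr11:106394650-106487852), the gene for IRE1, was at 33.4, 28.7 and 28.4 CPM in WT p6 and at 18.9, 20.7 and 20.4 CPM in p18, a fall with no overlap (log2 change −0.59 ± 0.14, edgeR adjusted p = 0.00431). Eif2ak3, the gene for PERK, went the other way, from 33.4, 23.7 and 28.8 CPM to 45.5, 54.2 and 44.9 CPM (0.75 ± 0.15, edgeR adjusted p = 0.00155). Atf6 went from 45.1, 49.1 and 51.7 CPM to 70.0, 86.2 and 61.5 CPM (0.58 ± 0.13, edgeR adjusted p = 0.00318). With TMM scaling a single sensor declined while the others rose. With library totals alone Ern1 was again called lower (−0.95). Eif2ak3 (0.40, edgeR adjusted p = 0.108) and Atf6 (0.19, edgeR adjusted p = 0.548) were then not called. Xbp1 (chr11:5520659-5525893, GRCm38), the transcription factor whose mRNA IRE1 splices, was at 269, 98.0 and 273 CPM in p6 and at 493, 697 and 619 CPM in p18 (1.50 ± 0.28, edgeR adjusted p = 0.000828). Gene counts do not separate its spliced and unspliced forms. Bhlha15 (Mist1, chr5:144190286-144194441), a transcription factor of professional secretory cells, had the largest change of all, from 6.66, 0.846 and 3.60 CPM to 49.9, 61.3 and 36.2 CPM (3.78 ± 0.45, edgeR adjusted p = 1.96e-05). For both of these factors the low p6 value was replicate 2, the library that was also low in caseins. Without it the changes were 1.14 for Xbp1 and 3.27 for Bhlha15, both called.

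**Figure D3:**
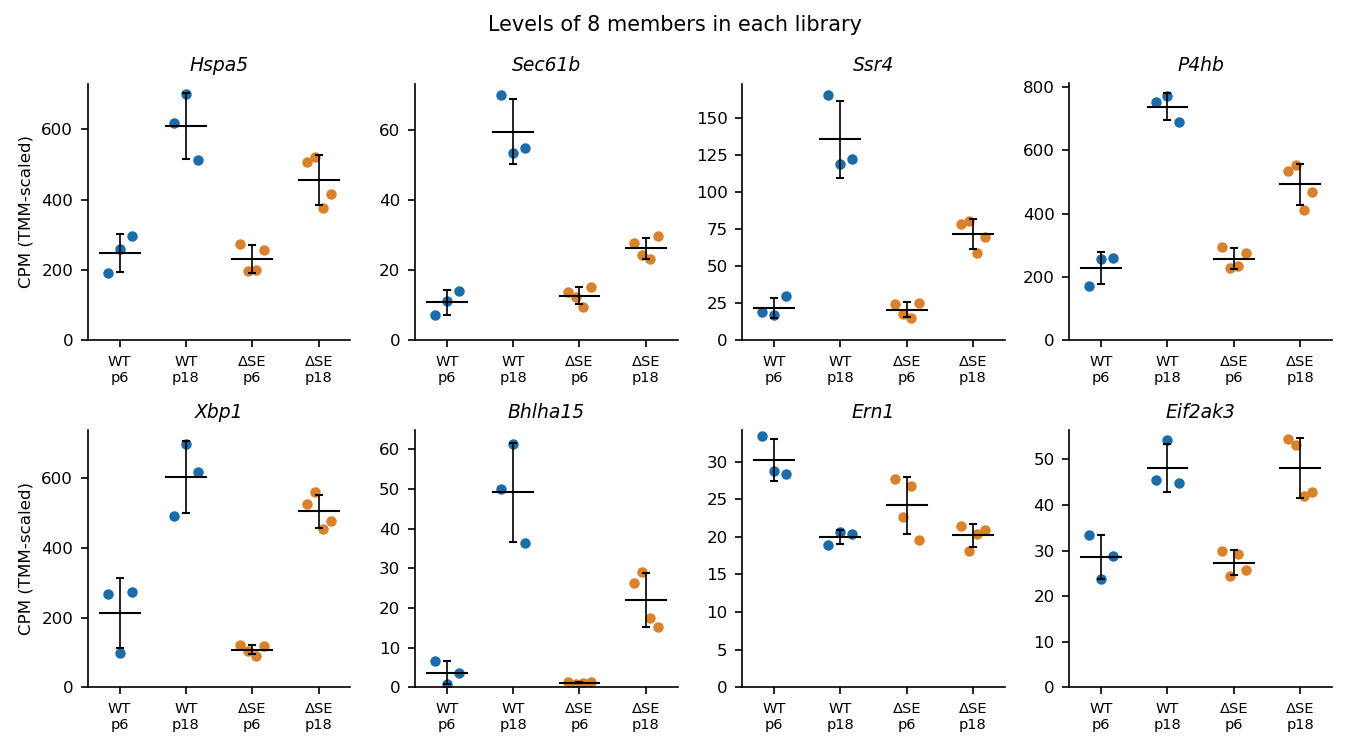
Level in CPM (vertical axis, scaled by TMM factors) of 8 members in each library of WT (blue) and ΔSE (orange) at p6 and p18, with the mean as a line and the SD as a bar. Ern1 is the one gene of the 8 that is lower at p18 than at p6 in WT, and the ΔSE p6 libraries of Xbp1, at 90.9 to 120 CPM, lie near the lowest WT p6 library, at 98.0 CPM.

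Divided by transcript length, the members spanned a wide range in WT p18. Xbp1 was the most abundant member, at 283 ± 48.4 CPM per kb (SD, n = 3), followed by P4hb at 258 ± 15.0, a gap within the spread of Xbp1. Calr and Hsp90b1 followed at 186 ± 22.05 and 184 ± 23.9 CPM per kb, and Ssr4 at 170 ± 32.5 and Hspa5 at 166 ± 25.7, so that these 4 neighbours did not differ beyond their spread. Atf6, at 10.02 ± 1.73 CPM per kb, and Ern1, at 2.88 ± 0.138, were near the bottom of the order.

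The increase from p6 to p18 went with transcript length over all genes, and the members followed that trend only in part. Among expressed genes (mean log2 CPM over 4), the median log2 change in WT was 0.99 for transcripts under 1000 bases, 0.57 from 1000 to under 2000, 0.23 from 2000 to under 4000, and −0.07 for 4000 and over. The members exceeded it in each class, with medians of 2.25, 1.30, 1.06 and 0.66. Sec61b, Ssr4 and Sec11c, whose rises were among the largest, have transcripts of 564, 800 and 860 bases. The smooth trend with length was then removed in each library, an alternative added after the data were seen. Again 38 members were called higher and 1 lower, where all genes gave 16.3% and 14.4%. The class medians of the members were then 1.64, 0.91, 1.01 and 0.80. The part that the length trend plays in the order of the roles was not tested otherwise.

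**Figure D4:**
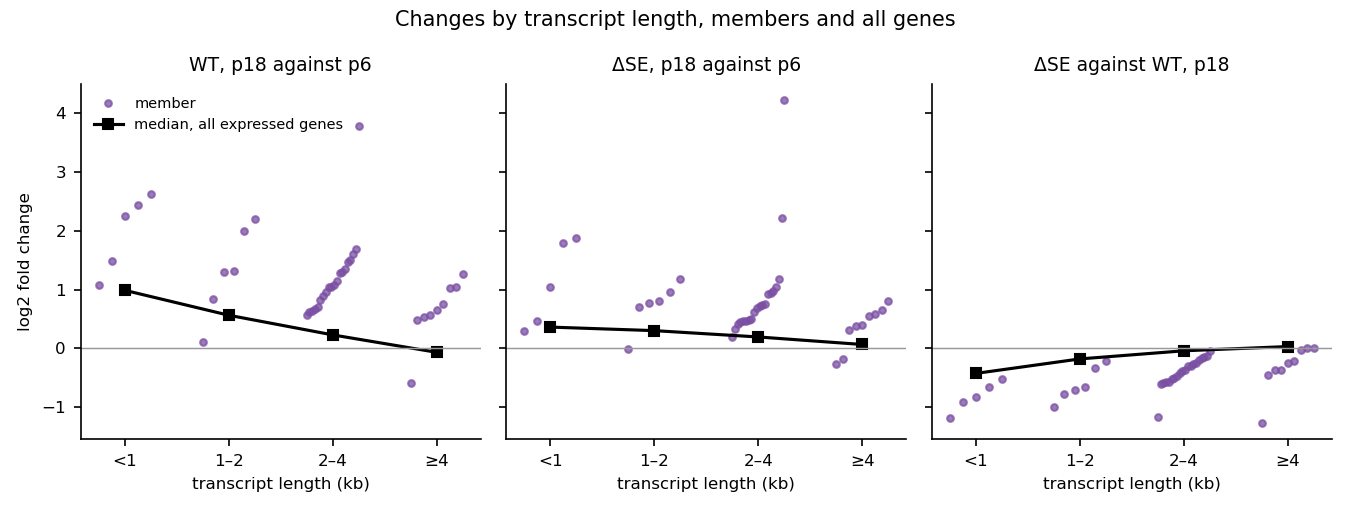
Log2 fold change (vertical axis) by class of transcript length in kb (horizontal axis) for WT p18 against p6, ΔSE p18 against p6 and ΔSE against WT at p18, with each member as a purple point, ordered by value within its class, and the median of all expressed genes as black squares. In WT the black line falls from 0.99 to −0.07, in ΔSE from 0.36 to 0.07, and in the contrast of genotypes it rises from −0.42 to 0.03.

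How many members passed the test depended on the scaling. With library totals alone, which lowered the median of all genes to −0.42, 38 members were still above 0 in WT with a median of 0.66. Of the members 21 were called higher, and Ern1 again was called lower, where all genes gave 4.28% and 20.5%. Among chaperones and folding enzymes, only Hspa5, P4hb, Dnajb11 and Dnajc3 were called higher in that setting. The summed level of 10 luminal epithelial markers was 1153 to 1339 CPM in WT p6 and 1851 to 2474 CPM in p18, and 3 of the 10 were called higher. Plasma cell genes summed to 6.57 to 403 CPM at p6 and 6.51 to 8.32 CPM at p18. Of 5 tested, 2 were called lower (median log2 change −3.66). Adipocyte genes had 2 of 10 called lower (median −0.77), skeletal muscle 0 of 8 (−1.04), and myoepithelium 1 of 7 lower and 3 higher. All genes gave 17.2% called higher and 12.4% lower with TMM scaling. The part of these tissues in the members' rise was not tested. With the level of the luminal keratins Krt8, Krt18 and Krt19 as a covariate, 31 members were called higher and their median was 1.13, while the share of all genes called higher went from 17.2% to 11.6%. With 1 estimated factor of unwanted variation in the fit, 2 members were called higher and 0 lower, with 37 of 40 above 0 and a median of 0.65. In that fit 0.286% of all genes were called higher and 0.112% lower.

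In ΔSE glands the ER genes also rose from p6 to p18. Of the 40 members, 33 were called higher and 0 lower, with a median log2 change of 0.67, where all genes gave 17.3% called higher, 18.3% called lower and a median of −0.07. By edgeR 36 members had an unadjusted p under 0.05 in either direction, for which no share over all genes was taken. DESeq2 called 34 members higher, against 17.7% of all genes. The 7 without a call by edgeR were Srp14, Srp54a, Spcs1, Pdia3, Pdia6, Herpud1 and Ern1. Library totals alone gave 7 members called higher and 2, Herpud1 and Ern1, called lower, with 19 members below 0, a members' median of 0.06 and the median of all genes at −0.65, where all genes gave 3.52% and 44.7%. The 10 luminal markers summed to 670 to 1246 CPM in ΔSE p6 and 2234 to 2566 CPM in p18, all 10 called higher. With the keratin covariate 16 members were called higher and their median was 0.74, while 5.72% of all genes were called higher. Markers of other tissue moved as well. All 8 skeletal muscle genes were called lower at p18 (median log2 change −7.69), with sums of 54.6 to 3780 CPM in ΔSE p6 and 8.75 to 18.6 CPM in p18. Of 10 adipocyte genes 7 were called lower (median −1.17), with sums of 4423 to 8780 CPM and then 2364 to 3444 CPM. The part of muscle and fat in the members' rise was not tested.

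The transcription factors led the rise in ΔSE. Bhlha15 was at 1.42, 0.921, 1.07 and 1.21 CPM in ΔSE p6 and at 26.3, 29.1, 17.5 and 15.1 CPM in p18 (log2 change 4.23 ± 0.43, edgeR adjusted p = 3.49e-06). Xbp1 was at 120, 103, 90.9 and 117 CPM and then at 525, 562, 454 and 478 CPM (2.23 ± 0.25, edgeR adjusted p = 7.68e-06). Every p18 library stood above every p6 library for both genes. Eif2ak3 rose by 0.82 ± 0.13, from 30.0, 24.5, 29.3 and 25.8 CPM to 54.5, 53.3, 42.1 and 43.0 CPM. Atf6 rose by 0.31, from 47.2, 52.2, 49.1 and 49.8 CPM to 69.0, 61.7, 57.3 and 57.8 CPM. Ern1, the sensor that fell in WT, was at 27.7, 22.7, 26.8 and 19.5 CPM and then at 21.5, 18.1, 20.4 and 20.9 CPM, with overlapping groups and no call (−0.26 ± 0.12, edgeR adjusted p = 0.11).

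The membrane machinery rose in ΔSE by smaller amounts. Sec61b went from 13.7, 12.4, 9.43 and 15.1 CPM to 27.7, 24.2, 23.3 and 29.7 CPM (log2 change 1.04 ± 0.19, edgeR adjusted p = 0.000458). Ssr4 went from 24.3, 18.0, 15.1 and 25.5 CPM to 78.5, 80.5, 58.6 and 70.0 CPM (1.79 ± 0.20, edgeR adjusted p = 7.78e-06). By role, the median change was 0.88 for TRAP, 0.83 for signal peptidase, 0.96 for the Sec61 channel and 0.65 for the signal recognition particle. Chaperones and folding enzymes had a median of 0.49, with 11 of 13 called. Hspa5 was at 273, 198, 198 and 256 CPM in ΔSE p6 and at 508, 522, 375 and 414 CPM in p18 (0.97 ± 0.17, edgeR adjusted p = 0.000424). P4hb rose from 293, 227, 233 and 277 CPM to 536, 554, 413 and 470 CPM, a log2 change of 0.94 ± 0.15.

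Set against WT at p18, the ER genes stood mostly lower in ΔSE, and few of the differences passed the test. The log2 difference was below 0 for 39 of 40 members, with a median of −0.40 beside −0.04 for all genes. In 21 members all 4 ΔSE libraries lay below all 3 WT libraries, an arrangement found in 9.80% of all genes. Yet 2 members were called lower and 0 higher, where all genes gave 0.213% and 0.101%. By edgeR 26 members had an unadjusted p under 0.05, for which no share over all genes was taken. DESeq2 called 12 members lower, against 2.02% of all genes. The members called by edgeR were Sec61b and Srp9. Sec61b was at 53.5 to 70.2 CPM in WT p18 and 23.3 to 29.7 CPM in ΔSE p18 (log2 difference −1.18 ± 0.19, edgeR adjusted p = 0.0147). Srp9 was at 40.1 to 49.3 CPM in WT and 22.2 to 30.2 CPM in ΔSE (−0.71 ± 0.13, edgeR adjusted p = 0.0345).

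These calls depended on single libraries and on the fit. With WT p18 replicate 1 or 2, or ΔSE p18 replicate 1, 2 or 3 left out, 0 members were called. Without ΔSE p18 replicate 4 only Sec61b was, and without WT p18 replicate 3 Srpr was called as well, which encodes a subunit of the receptor. Fitted on the 7 p18 libraries alone, 15 members were called lower, among them all 4 signal peptidase genes and Ssr2, Ssr3 and Ssr4, and in that fit 3.43% of all genes were called lower. With library totals alone neither Sec61b nor Srp9 was called (edgeR adjusted p = 0.0773 for Sec61b and 0.112 for Srp9). Over all expressed genes the median difference was −0.42 for transcripts under 1000 bases and 0.03 at 4000 and over, and Sec61b alone was called once the length trend was removed. The members lay below the median of all genes in every length class, at −0.82, −0.68, −0.37 and −0.24 from the shortest class to the longest.

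The other members gave values without a call. Hspa5 differed by −0.42 ± 0.18 (edgeR adjusted p = 0.361), with 1 ΔSE library, at 522 CPM, above the lowest WT library at 512 CPM and the other 3 below every WT library. Bhlha15 was at 36.2 to 61.3 CPM in WT and 15.1 to 29.1 CPM in ΔSE, apart in every library, and its difference of −1.16 ± 0.36 was not called (edgeR adjusted p = 0.161). The sensors Ern1 and Eif2ak3 differed by 0.02 ± 0.13 and −0.00049 ± 0.14. Milk proteins encoded outside the casein locus summed to 17134 to 33506 CPM in WT p18 and to 7930 to 20638 CPM in ΔSE p18, and luminal markers to 1851 to 2474 and 2234 to 2566 CPM. The part of the muscle and milk protein differences in these values was not tested.

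At p6 none of the 40 members was called different between the genotypes by edgeR with all libraries. Of the 40 members, 19 lay above 0 and 21 below, the median difference was −0.01, and edgeR called 0 higher and 0 lower, where all genes gave 0.499% and 0.527%. An unadjusted p under 0.05 was reached by 4 members, for which no share over all genes was taken. DESeq2 called 2 lower, Xbp1 and Bhlha15, against 2.41% of all genes. The calls at p6 depended on WT p6 replicate 2. Xbp1 was at 98.0 CPM in that library, 269 and 273 CPM in the other WT libraries and 90.9 to 120 CPM in ΔSE, a log2 difference of −0.98 ± 0.26 (edgeR adjusted p = 0.0678). Bhlha15 was at 0.846 CPM in that library, 6.66 and 3.60 CPM in the others and 0.921 to 1.42 CPM in ΔSE (−1.61 ± 0.48, edgeR adjusted p = 0.1). That library was the WT p6 library nearest to ΔSE in both genes, so that leaving it out widened their differences. Without it, Xbp1 (−1.34), Bhlha15 (−2.12) and Sec11c (−0.69) were called lower in ΔSE and Ssr3 (0.50) higher. The calls over all genes rose as well in that fit, to 5.42% higher and 4.55% lower, so that 1 and 3 of 40 members were near the background. Milk proteins outside the casein locus summed to 55.4 CPM in that library, 283 and 116 CPM in the other WT p6 libraries and 24.5 to 58.4 CPM in ΔSE p6.

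Whether the rise differed between genotypes was tested directly as an interaction. The change was smaller in ΔSE for 36 of 40 members, with a median difference of −0.39 on the log2 scale beside −0.06 for all genes, and edgeR called 0 members higher and 0 lower (all genes 0.0897% and 0.0616%). By edgeR 16 members had an unadjusted p under 0.05, for which no share over all genes was taken. DESeq2 called 6 members lower, against 1.69% of all genes. The nearest to the threshold were Sec61b (−1.40 ± 0.28, edgeR adjusted p = 0.0526), Ssr3 (−0.87 ± 0.20, edgeR adjusted p = 0.0725) and Ssr2 (−0.82 ± 0.19, edgeR adjusted p = 0.0797). Xbp1 and Bhlha15 had the opposite sign, at 0.73 ± 0.36 and 0.45 ± 0.60. Without WT p6 replicate 2, Sec61b, Ssr2 and Ssr3 were called lower and Xbp1 higher, where all genes gave 3.16% and 2.68%. Without WT p6 replicate 3, Sec61b alone was called.

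The single-enhancer lines stood higher than WT p18 in many ER genes, on a scale fitted over these 8 libraries (17125 genes). Stage, library set and genotype cannot be told apart in these contrasts. In delCsn1s2b-E, 20 members were called higher and 1 lower, where all genes gave 17.2% and 15.0%, with a median log2 difference of 0.63. In delCsn3-PE, 11 were called higher and 1 lower, against 13.8% and 11.5% of all genes, with a median of 0.58. Plasma cell genes, markers of another secretory cell, summed to 66.8 to 96.2 CPM in delCsn3-PE and 6.81 to 8.58 CPM in WT p18, with 3 of 5 tested called higher (median 2.37). Skeletal muscle genes had a median of −5.71 with 0 of 8 called. The part of either in the members' values was not tested. The member called lower in both was Srp54a, whose counts are uncertain as stated above. With the replicate number as a block, 11 and 2 members were called higher, against 12.8% and 5.17% of all genes.

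The order of the roles was not that of pregnancy. Chaperones and folding enzymes had the largest median among the roles in both lines, 0.90 in delCsn1s2b-E and 0.83 in delCsn3-PE. The Sec61 channel had the smallest, 0.35 and 0.34. The trend with transcript length over all expressed genes was not that of pregnancy either. In delCsn1s2b-E the median was 0.004 under 1000 bases and 0.34 from 2000 to under 4000, and in delCsn3-PE 0.16 and 0.35. The part of transcript length in the order of the roles was not tested here. Hspa5 was at 636, 732 and 525 CPM in WT p18, 866, 1692 and 1033 CPM in delCsn1s2b-E and 1564 and 698 CPM in delCsn3-PE. It was called in the first line only (0.92 ± 0.32, edgeR adjusted p = 0.0466, against 0.84 ± 0.35, edgeR adjusted p = 0.0997), and the lines themselves differed by 0.08 ± 0.35. The lectin chaperone Canx was called in both, at 0.90 and 0.89, and the channel accessory Sec62 at 0.95 and 0.89. Sec61b, so large a riser in pregnancy, was at 72.4, 55.9 and 56.4 CPM in WT p18, 49.8, 84.7 and 62.8 CPM in delCsn1s2b-E and 80.1 and 50.5 CPM in delCsn3-PE, with overlap throughout. Xbp1 was at 508, 729 and 636 CPM in WT p18, 925, 1024 and 1184 CPM in delCsn1s2b-E and 1364 and 1066 CPM in delCsn3-PE, apart in every library and called in both (0.74 ± 0.19, edgeR adjusted p = 0.0129, and 0.96 ± 0.21, edgeR adjusted p = 0.00894). Srp72 (0.84 and 0.73), Spcs2 (0.96 and 0.75) and Eif2ak3 (0.60 and 0.62) were called in both as well. Ern1 was at 16.7, 16.1 and 19.3 CPM in delCsn1s2b-E and 15.2 and 16.6 CPM in delCsn3-PE, below the 19.5 to 21.6 CPM of WT p18 in every library, without a call (−0.25 ± 0.13 and −0.38 ± 0.14).

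Within the lines, libraries of the same genotype differed strongly. In delCsn3-PE, replicate 1 held the higher value for 38 of 40 members, with a geometric mean over the members of 165 CPM against 99.0 CPM in replicate 2. In delCsn1s2b-E, replicate 2 was the highest for 37 members, at 183 CPM, with 131 CPM in replicate 3 and 106 CPM in replicate 1. The 3 WT p18 libraries lay at 101, 102 and 83.9 CPM. The same libraries were the highest in milk proteins outside the casein locus, at 93211 CPM in delCsn3-PE replicate 1 against 35646 CPM, and at 67401 CPM in delCsn1s2b-E replicate 2 against 50253 and 29887 CPM. Luminal markers varied less, from 2595 to 3038 CPM over the 5 libraries. The calls depended on these libraries. Without delCsn3-PE replicate 1, 1 member was called higher with a median of 0.14 (all genes 3.51%), and without replicate 2, 24 were, with a median of 0.91 (9.77%). Without delCsn1s2b-E replicate 2, 7 were, with a median of 0.40 (11.3%). Without WT p18 replicate 1, 2 or 3 the counts for delCsn1s2b-E were 7, 10 and 7, against 12.6%, 13.0% and 11.8% of all genes. For delCsn3-PE they were 4, 3 and 3, against 9.20%, 9.57% and 8.56%, so that the members were near the background. The direct contrast of both lines, which share their library set, gave 0 members called in either direction with edgeR and 0 with an unadjusted p under 0.05, where all genes gave 0.0117% higher and 0.169% lower. DESeq2 likewise called 0 higher and 0 lower.

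**Figure D5:**
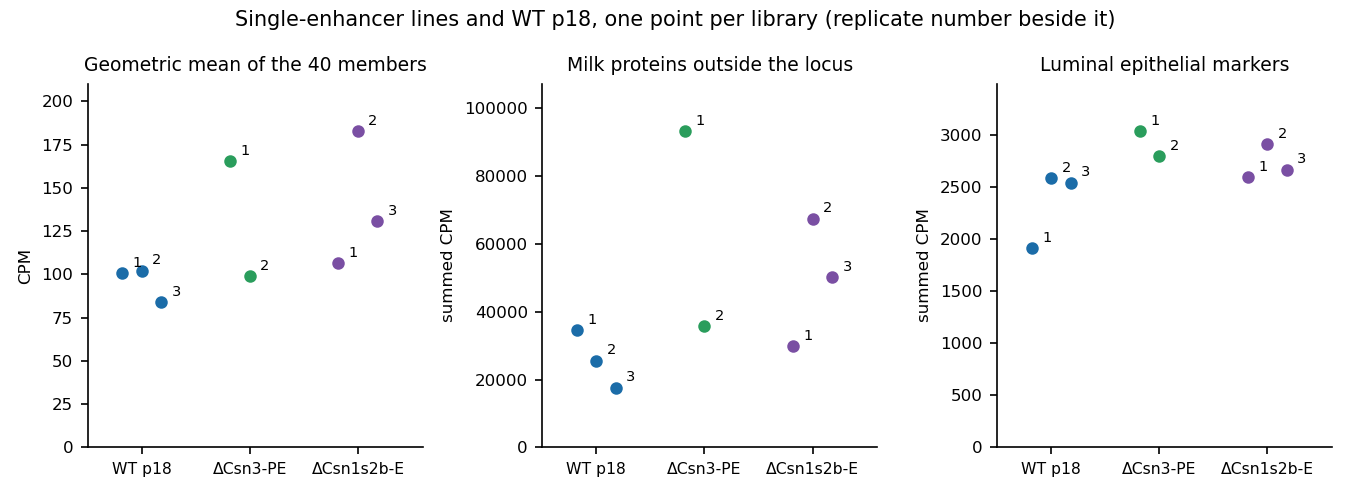
One point per library for WT p18, delCsn3-PE (ΔCsn3-PE) and delCsn1s2b-E (ΔCsn1s2b-E), with replicate numbers, giving the geometric mean of the 40 members in CPM, the summed CPM of the 6 milk protein genes that lie elsewhere in the genome, and the summed CPM of luminal markers. The highest libraries on the left, delCsn3-PE replicate 1 at 165 CPM and delCsn1s2b-E replicate 2 at 183 CPM, are also the highest of their line for milk proteins.

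In the pregnancy set the spread within the p18 groups was smaller. The highest library exceeded the lowest by 1.30-fold for the median member in WT p18 and by 1.31-fold in ΔSE p18. Single members such as Xbp1 and Bhlha15 varied more than that in WT p6, as given above. The geometric mean of the members was 36.6, 37.7 and 45.4 CPM in WT p6, 97.8, 97.7 and 81.7 CPM in WT p18, 42.7, 36.7, 34.7 and 40.6 CPM in ΔSE p6, and 73.3, 71.7, 59.0 and 64.1 CPM in ΔSE p18. The p18 libraries of either genotype lay above all p6 libraries. Counted as reads outside Rn45s, the members took 0.404% to 0.624% of WT p6 libraries and 0.792% to 0.878% of WT p18 libraries.

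Genes of the same pathway outside the 40 were taken from 7 lists, in which 72 of 76 genes could be tested. In WT, 47 were higher and 4 lower at p18, where all genes gave 17.2% and 12.4%. In ΔSE 39 were higher and 9 lower, where all genes gave 17.3% and 18.3%. With library totals alone the counts were 23 higher and 4 lower in WT, against 4.28% and 20.5% of all genes. In ΔSE they were 5 higher and 24 lower, against 3.52% and 44.7%. The ΔSE median of the 72 genes turned from 0.50 to −0.10, and that of all genes went from −0.07 to −0.65. The oligosaccharyltransferase, which adds glycans to proteins as they enter the ER, had 11 of 12 genes higher and 0 lower in WT, led by the subunit Magt1 (1.46 ± 0.13). Translocation factors outside the members had 4 higher, among them Tram1 (1.63) and Srprb (1.43), and 2 lower, Tram2 (−1.06) and Sec61a2 (−0.55). Of 18 oxidoreductases and prolyl isomerases 13 were higher and 0 lower, with Fkbp11 (3.90 ± 0.35, edgeR adjusted p = 2.17e-06) changing by an amount close to that of Bhlha15, and Prdx4 next at 1.85. In ΔSE 10 of these were higher and 4 lower. With library totals alone the oligosaccharyltransferase had 9 called higher in WT and 0 in ΔSE, and the oxidoreductases and prolyl isomerases had 5 higher in WT, and 2 higher and 5 lower in ΔSE.

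Degradation factors rose in part, 9 of 17 in WT, led by Edem2 at 1.57, which routes misfolded glycoproteins out of the ER. With library totals alone 3 of the 17 were called higher in WT. In ΔSE the counts turned from 8 higher and 1 lower to 1 higher and 8 lower. All genes gave 3.52% higher and 44.7% lower in that setting, so that 8 of 17 lower was near the background. Of 6 genes for glycan-dependent folding, 4 were higher and 1, Uggt2 (−0.65), was lower, where library totals gave 0 and 1. In the PERK-ATF4 arm 3 of 6 were higher, with Atf4 at 1.03 and Trib3 at 1.57, and Ddit3 (CHOP), a stress factor linked to cell death, was lower at −0.68 in WT and −0.62 in ΔSE. Of 7 other ER membrane transcription factors and proteases 3 were higher, Creb3l1 at 1.41, Creb3 at 1.00 and Mbtps2 at 0.43, and library totals gave 1. At p6, Fkbp14, a prolyl isomerase of the ER, was the 1 gene of the 72 called between the genotypes, at 1.13 ± 0.25 in ΔSE against WT (edgeR adjusted p = 0.0442). All genes gave 0.499% higher and 0.527% lower there. Fitted on the p6 libraries alone, 0 of all genes tested were called in either direction, so that Fkbp14 was not called either. At p18 edgeR called 0 of the 72 different between ΔSE and WT in either direction. By edgeR 23 of them had an unadjusted p under 0.05, for which no share over all genes was taken. DESeq2 called 0 of them higher and 7 lower in ΔSE, against 0.757% and 2.02% of all genes.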

How the data were processed

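Total RNA was depleted of ribosomal RNA and sequenced as stranded paired-end libraries. The authors trimmed reads with Trimmomatic, aligned them to mm10 with STAR, and deposited raw counts per gene from HTSeq, 1 file per library. The members and gene lists were chosen with earlier results of these data known. Counts were tested here with edgeR 4.0.16 (glmQLFit, glmQLFTest, TMM factors) in R 4.3.3, keeping genes with at least 10 reads in total, in 2 models. The first held 17844 genes in the 14 libraries of the pregnancy set, and the second 17125 genes in 8 libraries, WT p18 with both single-enhancer lines. Calls have a Benjamini-Hochberg adjusted p under 0.05 over all genes tested, with no fold minimum. SE is the log2 change over the square root of its F. CPM are TMM-scaled and differ slightly between the models. Rows that name no gene held 23.5% to 30.6% of the reads in the single-enhancer files and were left out. Libraries are numbered replicates with no statement on pooling, so p-values measure the spread between these samples. No pair of the 22 replicate pairs was identical or agreed within sampling noise (lowest chi-square per gene 8.33). The test was checked on simulated data. Transcript lengths came from GENCODE M21 on GRCm38. The genes given in full were the sensors and transcription factors, Hspa5 and, per other role, the 2 members with the smallest p in WT and any called between genotypes, and for other lists up to 3 called genes with the smallest p. A few others are named after their values were seen. Alternatives were DESeq2 1.42.0, RLE factors, library totals, other filters, Rn45s left out, a replicate block, a factor of unwanted variation, luminal keratins as covariate, fewer groups, each library left out and, added later, a length correction. Whether replicate numbers pair samples is unknown. No pair of groups had every same-numbered correlation of deviations over 0.1, but this rule cannot exclude pairing. Between WT p6 and WT p18 these correlations were 0.073 to 0.212.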

Additional observations from a re-analysis of the deposited data

Results flagged for a closer look

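In groups of 4 libraries, a value far from the other three was sought for each of the 40 members in ΔSE p6 and ΔSE p18 by Dixon's criterion at the 95% level, which chance meets in about 1 group in 20. It was met once in 80 tests. Pdia6, a protein disulfide isomerase, stood at 131 CPM in ΔSE p6 replicate 1 and at 99.1 to 103 CPM in the other libraries of that group.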

How the results depend on the processing

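With library totals only, WT p18 against p6 gave 21 members higher, and ΔSE p18 against p6 gave 7 higher and 2 lower. ΔSE against WT at p18 gave 0 lower, and delCsn1s2b-E and delCsn3-PE against WT gave 36 and 33 higher. All genes gave 4.28% higher in WT, 3.52% higher and 44.7% lower in ΔSE, 0.0616% lower at p18, and 31.8% and 29.8% higher in the lines. In ΔSE p18 against p6 that setting turned Dnajc3 to −0.066 and Atf6 to −0.29. One factor of unwanted variation gave 2 higher and 0 lower in WT, 0 higher in ΔSE, 7 lower at p18, and 7 and 2 higher in the lines. All genes gave 0.286% higher and 0.112% lower in WT, 0% higher in ΔSE, 0.420% lower at p18, and 16.0% and 10.2% higher in the lines. That fit turned Dnajc3 to −0.14, Creld2 to −0.12, Manf to −0.037 and Eif2ak3 to −0.25 in ΔSE p18 against p6. With the keratin covariate the counts were 16 higher in ΔSE, 1 lower at p18, and 2 and 4 higher in the lines. All genes gave 5.72%, 0.0841%, 5.19% and 13.9% in the same order. DESeq2 gave 12 lower at p18, 2 lower at p6, 6 lower in the interaction, and 2 lower in delCsn3-PE. Its shares of all genes were 2.02%, 2.41%, 1.69% and 13.7%. No filter gave 4 lower at p18 and 1 lower in the interaction, against 0.388% and 0.219% of all genes. Fitting only the 2 groups gave 15 lower at p18, against 3.43% of all genes. For delCsn3-PE, RLE factors gave 6 higher, filterByExpr 7 and Rn45s left out 6, against 11.4%, 14.2% and 11.4% of all genes. The length correction gave 1 lower at p18, and 11 and 3 higher in the lines, against 0.125%, 15.5% and 11.3% of all genes. The cause of these shifts was not tested.

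With each library left out in turn, the counts ran from 35 to 38 higher and 1 to 1 lower in WT, 26 to 34 higher and 0 to 1 lower in ΔSE, 0 to 3 lower at p18, 0 to 1 higher and 0 to 3 lower at p6 and in the interaction, 7 to 25 higher in delCsn1s2b-E, and 1 to 24 higher and 1 to 2 lower in delCsn3-PE. In these fits all genes called higher ran from 13.5% to 16.5% in WT, 14.3% to 17.8% in ΔSE and 11.3% to 15.1% in delCsn1s2b-E. Those called lower at p18 ran from 0.0112% to 0.411%. The replicate block gave 11 higher in delCsn1s2b-E and 2 in delCsn3-PE, against 12.8% and 5.17% of all genes. Whether the numbers pair samples there is unknown, and the block left the other counts within 1.5 times. The other settings kept direction and count within that bound. Fits that left 1 delCsn3-PE library assume that it varies like the other groups.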
